A study of Arabidopsis thaliana with 3 samples.

Results

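The genes described here are 54 nuclear genes of Arabidopsis thaliana whose level fell with salt in wild type and was higher in the salt-treated skip mutant than in salt-treated wild type. They were chosen on the measured values: a log2 ratio of -1 or lower for WT-S over WT-0, a log2 ratio of 1 or higher for skip-S over WT-S, and at least 5 FPKM in 1 or more of the 4 columns. FPKM counts sequenced fragments per length of transcript and per size of library. Of 33557 identifiers 33278 were nuclear, and 15974 of these had 5 FPKM or more in a column.

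RNA of whole seedlings, 11 days old, was sequenced in 3 groups. skip-S was the skip mutant after 4 h in MS liquid medium with 200 mM NaCl. WT-S was wild type under the same treatment, and WT-0 was wild type in MS liquid medium without the added salt. No skip seedlings without salt were analysed here, so an effect of the mutation that needs salt and an effect present without it cannot be told apart. The labels name neither the allele nor the accession of the plants. The authors merged 2 replicates into the 1 value that each gene has in a group. The differences below therefore carry no replicate error, and none was tested.

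SKIP is a protein of the spliceosome that also takes part in transcription with the Paf1 complex. Aliphatic glucosinolates, defence compounds of the cabbage family, are built from methionine whose side chain is first lengthened in the plastid and then converted to the core structure by enzymes outside it. The chloroplast NDH complex is a large thylakoid assembly that passes electrons from photosystem I back to plastoquinone, with nuclear and plastid genes supplying its subunits. Salt is widely known to lower the transcripts of photosynthesis and growth genes in seedlings.

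WT-S stands below the line in 1 ratio and above it in the other. A WT-S value that is low by chance moves a gene towards the rule in both, so the directions are no finding and are given as a description. In bulk tissue, fewer cells of a type and less RNA per cell cannot be told apart. Of the 15974 nuclear genes with 5 FPKM or more, 6.05% were at least 2-fold lower in WT-S than in WT-0 and 2.03% were at least 2-fold higher in skip-S than in WT-S. The 54 members are 0.338% of the 15974 and 5.58% of the 967 salt-lowered genes. Among the same 967 genes, 86 (8.89%) were at least 2-fold lower in skip-S than in WT-S, beside 4.76% of the 15974, and 827 lay within 2-fold.

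**Figure D1:**
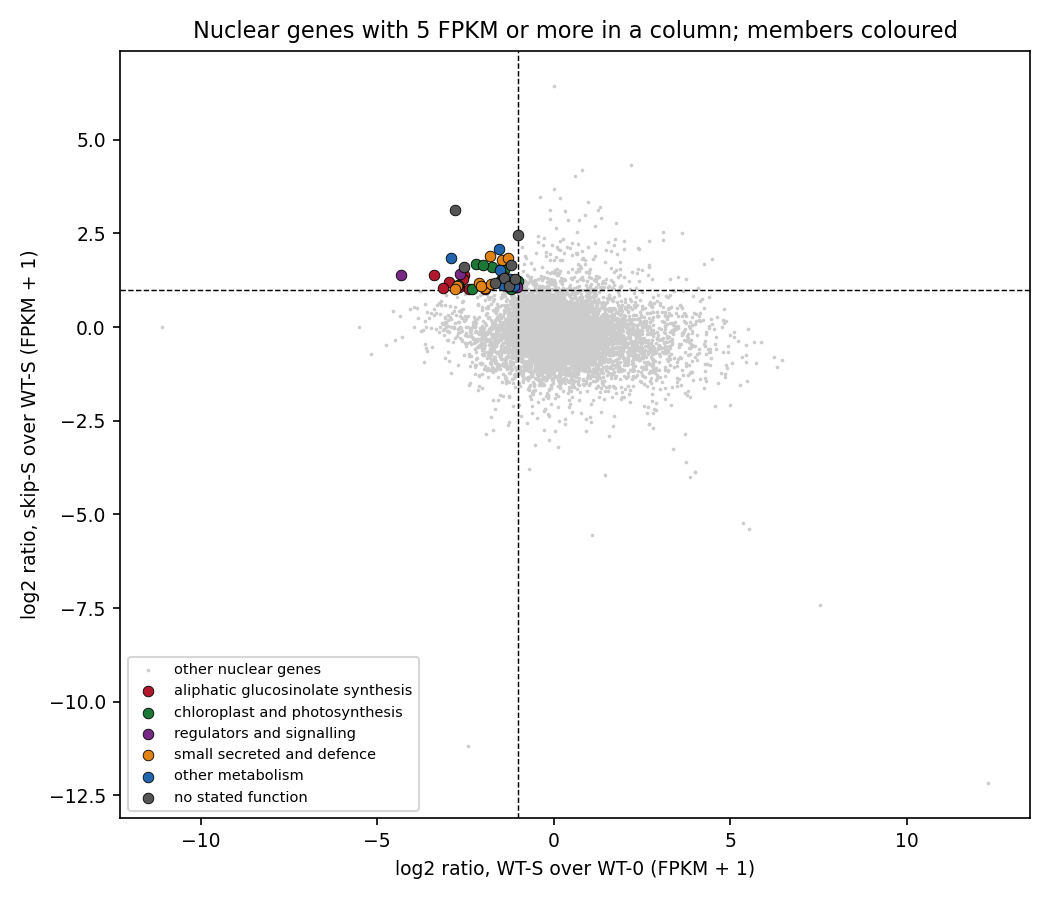
Each point is a nuclear gene with 5 FPKM or more in a column; the x axis is the log2 ratio of WT-S over WT-0 and the y axis that of skip-S over WT-S, both on FPKM + 1, and dashed lines mark 2-fold. The 54 members fill the corner left of the vertical line and above the horizontal one, and most lie close to the horizontal line, with 39 of them under a log2 ratio of 1.5 in skip; the highest coloured point is AT2G28426, listed at 0 in WT-S, whose place is set by the pseudocount.

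The higher level in skip was small for most members. AT2G28426 was listed at 0 in WT-S, so that the pseudocount sets its ratios, and it is left out of the sizes that follow. In the other 53 members the log2 ratio of skip-S over WT-S had a median of 1.21 and a range of 1.005 to 2.46, and 39 were under 1.5. Of these 53, AT1G03660 and ATSPS4F passed 4-fold. The fall with salt was wider, with a median log2 ratio of -1.51 and a range of -4.34 to -1.005. It reached 4-fold in 19 members and 8-fold in GASA6, IPMI1 and CYP79F2. The median over all nuclear genes with 5 FPKM or more in both columns was 0.006 for salt and -0.064 for skip, so neither scale was shifted by more than 0.1.

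Genes lay close to each limit on both sides. Just inside the salt limit were AT2G14880 at -1.005, AT1G03660 at -1.01 and ARR7 at -1.04. Just outside it, with the skip limit met, were AT3G51870 at -0.97, MRL1 at -0.96 and PDE340 at -0.92. Just inside the skip limit were IPMI2 at 1.005, RIBA3 at 1.02 and PCC1 at 1.02, and just outside it were AT2G46220 and FAD5 at 0.99 and G6PD1 at 0.97.

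The ratio of skip-S over WT-0 leaves WT-S out and shows where each member stood in the mutant relative to untreated wild type. It is a level set across separately scaled tables, joined by a factor of 1.1049, the median of WT-S in the first table over WT-S in the second. It follows in part from the rule, which fixes both ratios that add up to it. In skip-S, 39 of the 54 members were within 2-fold of WT-0, 14 were at least 2-fold below and 1, AT1G03660, was above. The number below WT-0 was 33 with a pseudocount of 0.1 and 4 with a pseudocount of 5. Over all 15974 genes, 10.4% were at least 2-fold below WT-0 and 10.5% above. The members' median log2 ratio was -0.22, or 86.1% of WT-0, with a range of -2.92 to 1.56, and 24 of them lay within 0.25 of 0. Of the other 913 salt-lowered genes, 84.0% were at least 2-fold below WT-0 in skip-S. The median level in skip-S was 31.1% of WT-0 for those within 2-fold in skip and 13.8% for those lower in skip. These sets were split on the skip ratio, so the order of their levels is built in and no finding.

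**Figure D2:**
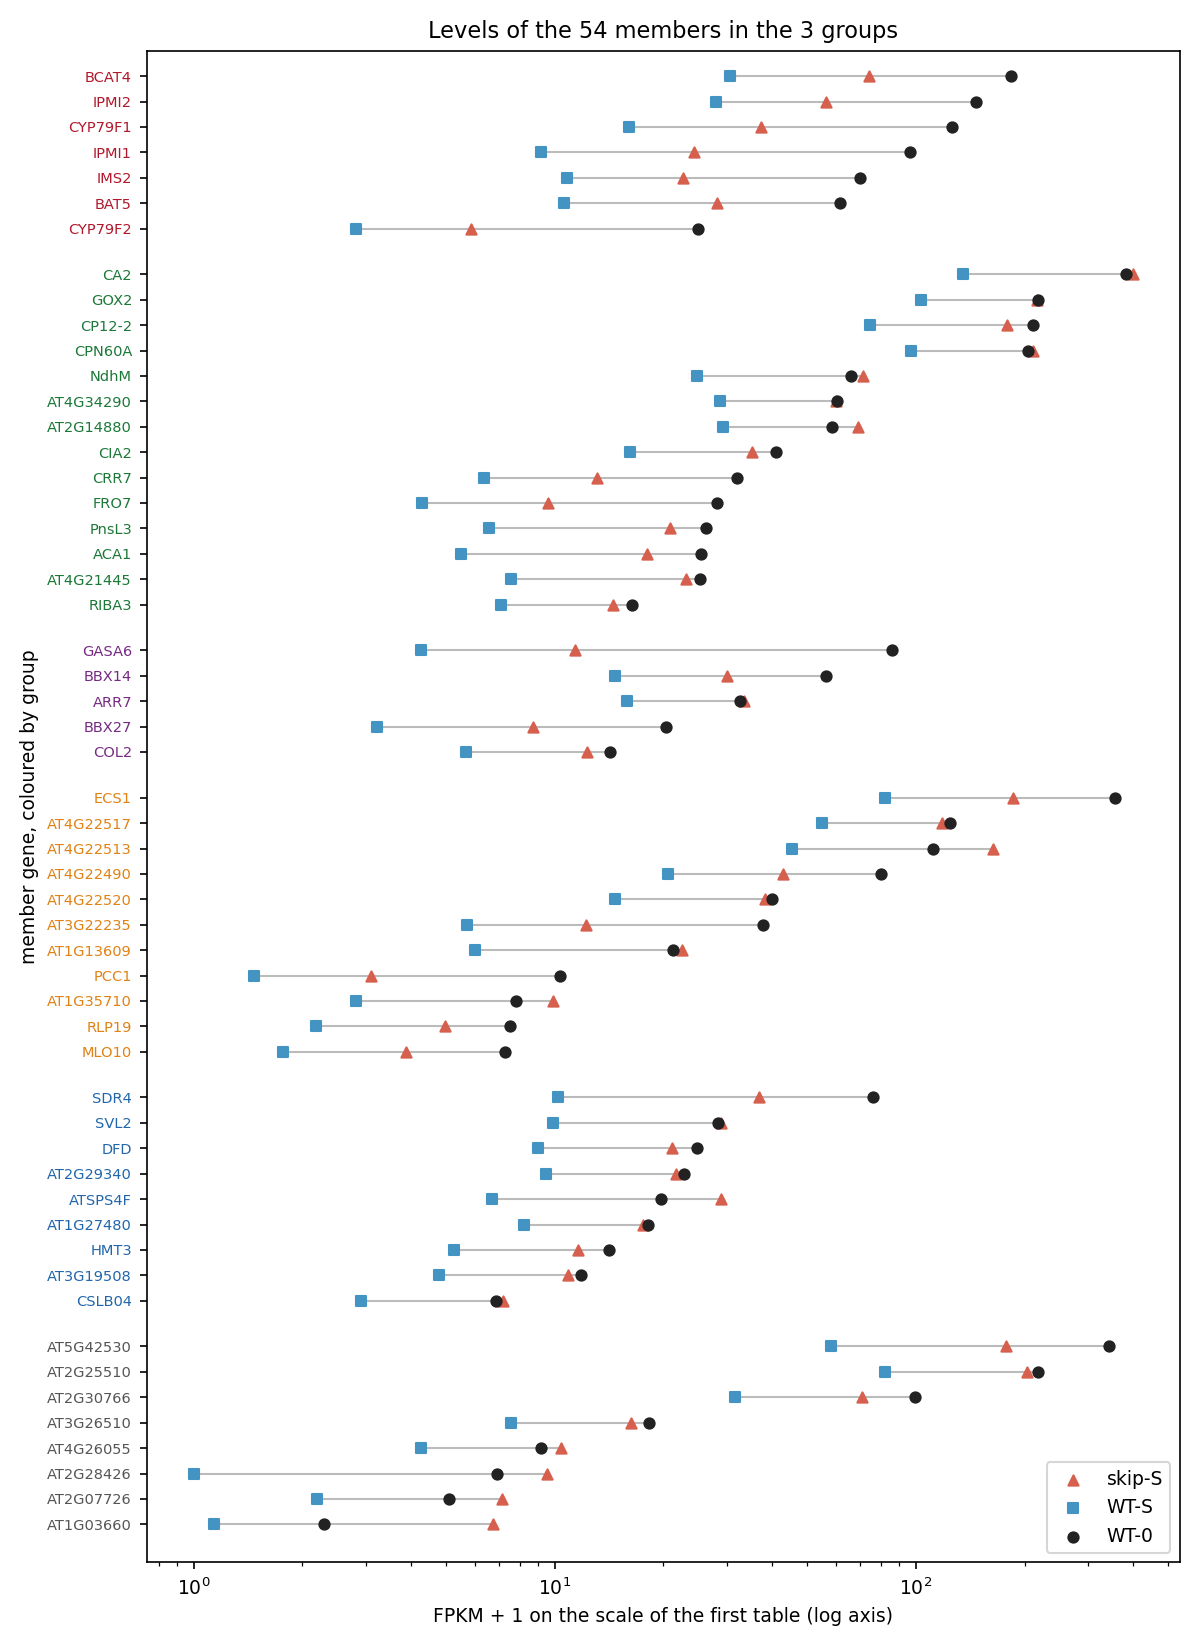
Levels of all 54 members, 1 line each, as FPKM + 1 on a log axis, with skip-S as a triangle, WT-S as a square and WT-0 as a circle; skip-S is rescaled by 1.1049 to the first table. In the glucosinolate lines at the top the triangle lies between square and circle. In most lines of the chloroplast and photosynthesis-linked group the triangle lies at or near the circle.

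Genes of aliphatic glucosinolate synthesis made up 7 members and were the group with the largest median fall with salt. All 7 were between 23.6% and 45.7% of WT-0 in skip-S, at least 2-fold below untreated wild type, with a median of 32.5%. Their median log2 ratio was -2.69 with salt and 1.21 in skip. BCAT4, BAT5, IMS2, IPMI1 and IPMI2 act in the lengthening of the methionine side chain, and CYP79F1 and CYP79F2 in the entry to the core structure. With a pseudocount of 5 the skip log2 ratio was 0.90 for IPMI2, 0.83 for IMS2 and 0.50 for CYP79F2, and these 3 genes no longer met the rule. None of the 7 reached 3-fold in skip; the highest was BAT5 at 2.64-fold.

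BCAT4, the aminotransferase that opens the pathway by removing the amino group of methionine, had 66.3 FPKM in skip-S against 26.8 FPKM in WT-S in the second table. In the first table it had 29.6 FPKM in WT-S against 182 FPKM in WT-0. It was thus 2.42-fold higher in skip, and 5.97-fold lower with salt. Each ratio is taken within its table, so WT-S has 2 values per gene, and the other genes are given in the same way. BCAT4 overlaps AT3G19700 over 18.4% of its transcript, and that locus was below 0.1 FPKM in every column. BAT5, the plastid carrier for the keto acids of the pathway, had 24.6 FPKM in skip-S against 8.70 in WT-S, and 9.61 in WT-S against 60.7 in WT-0.

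IMS2, also called MAM3, one of the condensing enzymes that add carbon to the chain, had 19.7 FPKM in skip-S against 8.90 in WT-S, and 9.83 in WT-S against 68.9 in WT-0. IPMI1, a small subunit of the isomerase that follows, had 21.1 FPKM in skip-S against 7.39 in WT-S, and 8.17 in WT-S against 95.4 in WT-0. The other small subunit, IPMI2, had 50.05 FPKM in skip-S against 24.4 in WT-S, and 27.0 in WT-S against 146 in WT-0. IPMI1 was the deeper of these falls, 10.5-fold with salt against 5.25-fold for IPMI2.

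CYP79F1 and CYP79F2 are adjacent cytochrome P450 genes that turn chain-lengthened methionines into aldoximes. CYP79F1 had 32.7 FPKM in skip-S against 13.6 in WT-S, and 15.01 in WT-S against 125 in WT-0. CYP79F2 had 4.42 FPKM in skip-S against 1.64 in WT-S, and 1.82 in WT-S against 23.9 in WT-0. It was the lowest of the 7 in every group, and skip-S reached 23.6% of WT-0. The pair shared under 3% of their 50-base stretches with other loci (2.0% for CYP79F1 and 2.7% for CYP79F2).

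The rest of the pathway was read from a list of 28 genes put together after the members were known. With salt, 22 of the 28 were at least 2-fold lower and 2 higher. In skip, 7 were at least 2-fold higher, which are the members, and none was lower. Of the 28, 26 had 5 FPKM or more in a column. Over nuclear genes at that level, 6.05% were lower and 11.0% higher with salt, and 2.03% higher and 4.76% lower in skip. Over all 33278 nuclear identifiers the shares were 3.70%, 6.08%, 1.3% and 2.62%. Among the 9 chain-lengthening genes, the non-members MAM1, IMD1, IIL1 and BCAT3 had log2 ratios in skip of 0.56, 0.47, 0.24 and 0.05. MAM1 had 75.5 FPKM in skip-S against 50.7 in WT-S, and 56.0 in WT-S against 207 in WT-0.

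All 9 genes of the core steps were at least 2-fold lower with salt, and only CYP79F1 and CYP79F2 passed 2-fold in skip. GSTU20, a glutathione transferase and the most abundant of them, had 232.1 FPKM in skip-S against 232.2 in WT-S, a log2 ratio of -0.001, and 257 in WT-S against 732 in WT-0. SUR1, the carbon-sulfur lyase, reached 0.81 in skip, and the sulfotransferases SOT18 and SOT17 had 0.60 and -0.15. The list therefore held both genes near 2-fold and genes at no change in skip.

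The 3 MYB factors known to switch on the aliphatic pathway fell with salt, and none was 2-fold higher in skip. MYB28 had 24.6 FPKM in skip-S against 21.3 in WT-S, and 23.5 in WT-S against 77.4 in WT-0. MYB29 had 9.36 FPKM in skip-S against 11.9 in WT-S, and 13.1 in WT-S against 27.5 in WT-0. The log2 ratios in skip were 0.20 for MYB28, -0.31 for MYB29 and -0.11 for MYB76. Among the side-chain genes, FMO GS-OX2 and FMO GS-OX4 rose with salt, by log2 ratios of 1.79 and 2.51, and their skip ratios were -0.53 and -0.63.

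A parallel list of 10 genes of indole glucosinolates, which start from tryptophan, had 6 lower and 1 higher with salt and none past 2-fold in skip. Its median skip log2 ratio was -0.33. In 5 genes of leucine synthesis related to the chain-lengthening enzymes, none passed 2-fold in either comparison. The list of sulfate and glucosinolate genes, the only one of 11 pathway lists to hold members, had 10 of 17 genes lower and 3 higher with salt. In skip 3 were higher, the members that the rule chose, and none was lower. Among all nuclear genes with 5 FPKM or more, 6.05% were lower and 11.0% higher with salt, and 2.03% higher and 4.76% lower in skip. In lists this short, none past 2-fold in skip is near those shares.

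**Figure D3:**
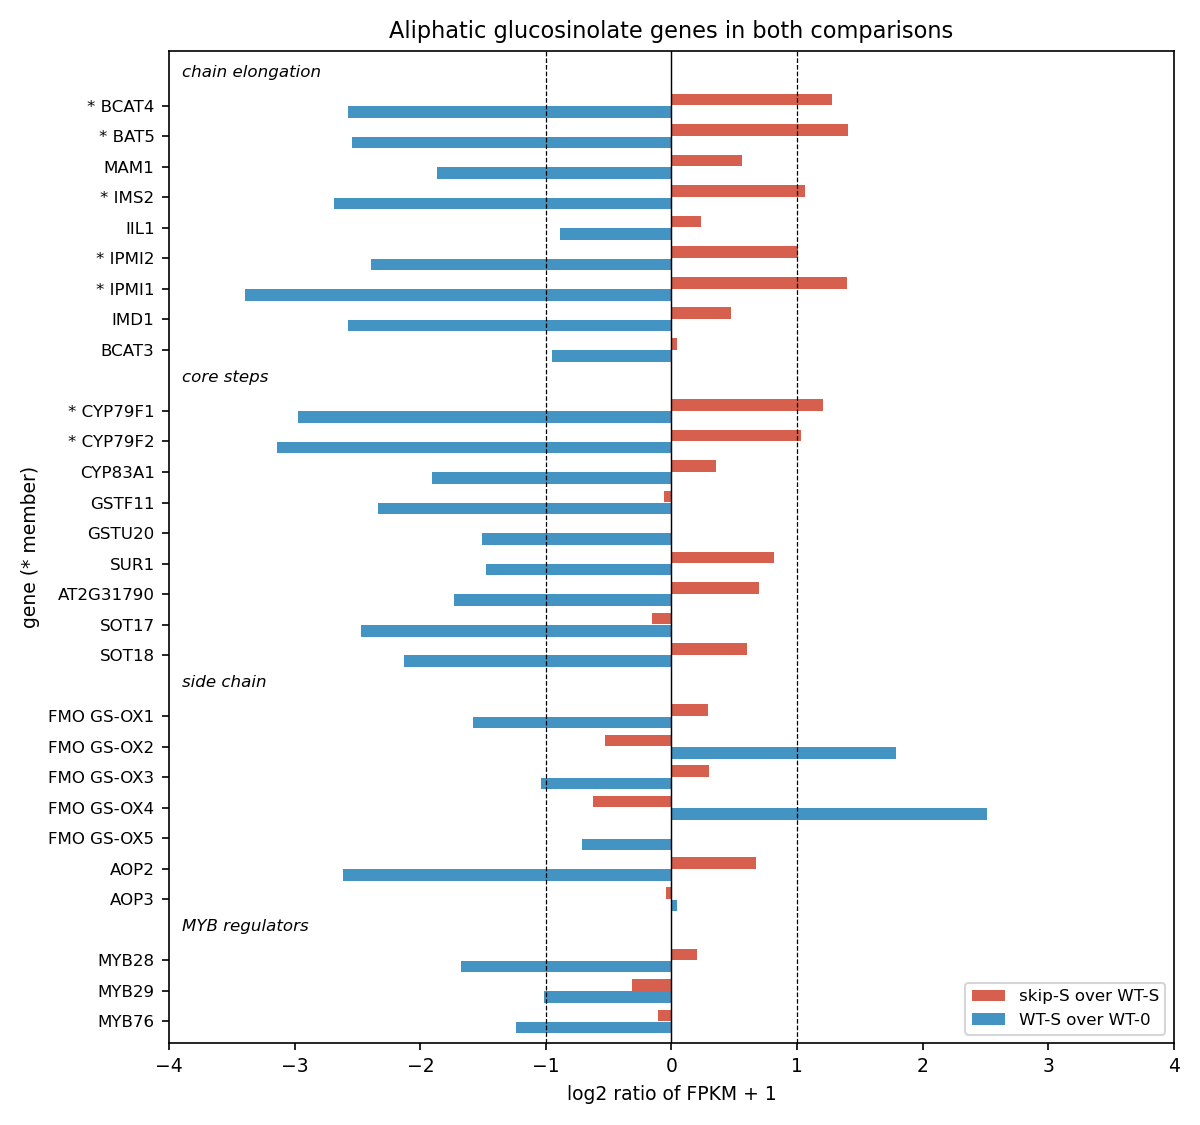
Log2 ratios of FPKM + 1 for 28 aliphatic glucosinolate genes by pathway step, with skip-S over WT-S as the upper and WT-S over WT-0 as the lower bar of each gene; dashed lines mark 2-fold and asterisks mark members. Lower bars point left in 25 of 28 genes, and upper bars pass 2-fold in 5 chain-elongation and 2 core genes and in no MYB regulator.

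Chloroplast and photosynthesis-linked genes were the largest group, with 14 members. This grouping has no share over all genes beside it. A count by stated location covers a different set: 12 of 32 members (37.5%) were in the plastid, beside 26.8% of all genes with 5 FPKM or more. That set takes in IPMI1, IPMI2 and SVL2 from other groups, and CIA2 and FRO7 of this group have no stated location. In skip-S, 12 of the 14 were within 2-fold of WT-0, and CRR7 and FRO7 were below; the median was 89.8% of WT-0. CA2, a beta carbonic anhydrase of leaves that interconverts carbon dioxide and bicarbonate, was the most abundant member. It had 360.0 FPKM in skip-S against 121.5 FPKM in WT-S, and 134.3 FPKM in WT-S against 381.0 FPKM in WT-0. On the scale of the first table skip-S was 397.7 FPKM, 104.4% of WT-0. That WT-S stood below both follows from the rule. ACA1, an alpha carbonic anhydrase, had 15.4 FPKM in skip-S against 4.08 in WT-S, and 4.51 in WT-S against 24.4 in WT-0. Of 19 genes annotated as carbonic anhydrases, 12 had 5 FPKM or more in a column. CA2 and ACA1, which the rule chose, were the only ones past 2-fold in either comparison. ACA2 came close to both limits in the opposite direction, at 0.99 with salt and -0.95 in skip. Among all nuclear genes with 5 FPKM or more, 6.05% were lower and 11.0% higher with salt, and 2.03% higher and 4.76% lower in skip. CA1, the most abundant relative, had 1206 FPKM in skip-S against 1026 in WT-S, and 1134 in WT-S against 1669 in WT-0.

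CP12-2, a small protein that ties together and silences a pair of Calvin cycle enzymes in the dark, had 161 FPKM in skip-S against 66.5 in WT-S, and 73.5 in WT-S against 210.0 in WT-0. Its relatives did not share this pattern: the skip log2 ratio was -0.20 for CP12-1 and 0.12 for CP12-3. CPN60A, a chloroplast chaperonin subunit that helps fold Rubisco, had 189.5 FPKM in skip-S against 87.1 in WT-S, and 96.2 in WT-S against 203.5 in WT-0. It was the only one of 15 annotated chaperonin-60 genes that was 2-fold higher in skip, while 3 of the 15 were lower with salt. Among all nuclear genes with 5 FPKM or more the shares were 2.03% and 6.05%. CPN60B and Cpn60beta2 changed in the same directions, by log2 ratios of -0.82 and -1.14 with salt and 0.73 and 0.56 in skip. All 15 genes had a salt ratio below 0, and 10 had a skip ratio above 0. GOX2, a photorespiratory glycolate oxidase, had 195.2 FPKM in skip-S against 92.6 in WT-S, and 102.3 in WT-S against 217.0 in WT-0. Its close relative AT3G14420 missed both limits, at -0.65 with salt and 0.92 in skip, and had 581 FPKM in skip-S against 307 in WT-S.

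NdhM, PnsL3 and CRR7 belong to the chloroplast NDH complex, the first as a subunit, PnsL3 as a lumenal subunit and CRR7 as a factor of its assembly. NdhM had 63.6 FPKM in skip-S against 21.5 in WT-S, and 23.8 in WT-S against 65.3 in WT-0. PnsL3 had 18.02 FPKM in skip-S against 5.03 in WT-S, and 5.56 in WT-S against 25.3 in WT-0. The skip-S level was 107.6% of WT-0 for NdhM and 79.5% for PnsL3. CRR7 had 11.0 FPKM in skip-S against 4.87 in WT-S, and 5.38 in WT-S against 31.0 in WT-0, and skip-S stood at 40.9% of WT-0.

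Of 23 nuclear genes for the complex, a list put together after the members were known, 6 were at least 2-fold lower with salt and 3 higher in skip, with median log2 ratios of -0.54 and 0.20. All 23 had 5 FPKM or more in a column. Over nuclear genes at that level 6.05% were lower with salt and 2.03% higher in skip. The 3 higher in skip are the members that the rule chose. Ratios in skip ran in both directions. NdhN had 0.83 and Lhca6, a linker to photosystem I, 0.56, whereas PnsB4 had -0.89 and PnsL4 -0.61. PnsL4, which was 2.34-fold lower with salt, had 19.0 FPKM in skip-S against 29.5 in WT-S.

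FRO7, the ferric reductase of the chloroplast envelope, had 7.75 FPKM in skip-S against 2.98 in WT-S, and 3.296 in WT-S against 27.2 in WT-0. It shared 14.0% of its 50-base stretches with FRO6 (AT5G49730), which had 5.02 FPKM in skip-S against 2.33 in WT-S, and 2.57 in WT-S against 28.7 in WT-0. FRO6 thus fell further, by a log2 ratio of -3.06, and its skip ratio of 0.86 missed the limit. The remaining members of this group were CIA2, a factor that activates genes of chloroplast protein import, and RIBA3, of riboflavin synthesis. AT4G21445, and AT2G14880 and AT4G34290, both SWIB domain proteins, complete it. CIA2 had 30.9 FPKM in skip-S against 13.7 in WT-S, and 15.1 in WT-S against 40.1 in WT-0. In skip-S these 5 genes ranged from 85.5% to 118.2% of WT-0.

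**Figure D4:**
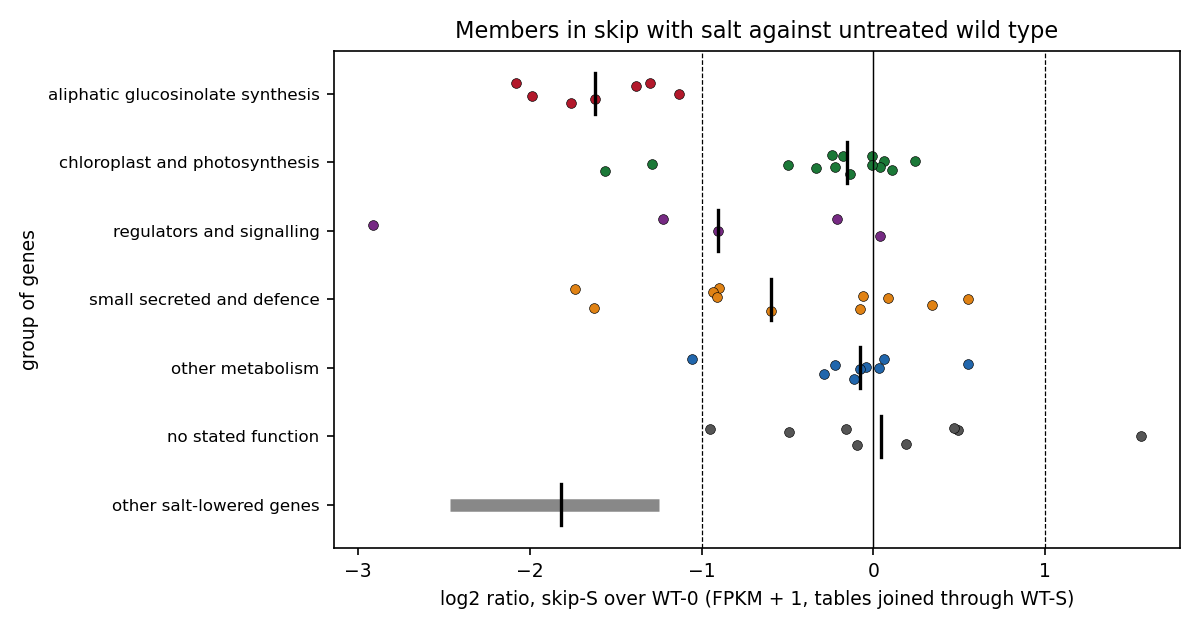
The x axis is the log2 ratio of skip-S over WT-0 on FPKM + 1, joined through WT-S; each point is a member, thick strokes are medians of each group, the grey bar is the middle 50% of the 913 other salt-lowered genes, and dashed lines mark 2-fold. All 7 glucosinolate genes lie left of the dashed line at -1. Of the 14 chloroplast and photosynthesis-linked genes 12 lie between the dashed lines, and the grey bar runs from -2.47 to -1.25. Members and other salt-lowered genes were split on the skip ratio, so the lower place of the grey bar follows in part from the rule.

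Among 5 regulators and signalling genes, GASA6, a small peptide gene responsive to gibberellin, had the deepest fall of any member. It had 9.42 FPKM in skip-S against 2.95 in WT-S, and 3.26 in WT-S against 85.0 in WT-0, a 20.2-fold fall with salt and 13.3% of WT-0 in skip-S. Of its transcript, 18.2% overlapped AT1G74675, a locus for which no value was used here.

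ARR7, a type-A response regulator that damps cytokinin signalling, had 29.3 FPKM in skip-S against 13.4 in WT-S, and 14.8 in WT-S against 31.5 in WT-0. All 10 type-A regulators had a salt ratio below 0, and 6 were at least 2-fold lower. In skip 9 of the 10 had a ratio above 0 but ARR7 alone, chosen by the rule, passed 2-fold. The next were ARR9 at 0.84 and RR5 at 0.78. Among all nuclear genes with 5 FPKM or more, 6.05% were at least 2-fold lower with salt and 2.03% higher in skip.

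BBX14, BBX27 and COL2 encode B-box zinc finger proteins, a family with many members in light and flowering responses. Of 34 annotated B-box genes these were the only 3 at least 2-fold lower with salt, and 7 were higher, while in skip 6 of the 34 were higher and none lower. The rule placed these 3 there. Over all nuclear identifiers 3.70% were lower and 6.08% higher with salt and 1.3% higher in skip. Over those with 5 FPKM or more the shares were 6.05%, 11.0% and 2.03%, and 28 of the 34 genes were at that level. BBX14 had 26.3 FPKM in skip-S against 12.4 in WT-S, and 13.7 in WT-S against 55.3 in WT-0. BBX27 had 6.98 FPKM in skip-S against 2.01 in WT-S, and 2.22 in WT-S against 19.3 in WT-0. COL2 had 10.2 FPKM in skip-S against 4.22 in WT-S, and 4.67 in WT-S against 13.2 in WT-0. In skip-S, COL2 stood at 86.5% of the WT-0 level, BBX14 at 53.4% and BBX27 at 42.8%. COL2 shares 21.0% of its transcript with the overlapping AT3G02370 and AT3G02390, each below 5 FPKM in every group.

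Small secreted and defence-related proteins gave 11 members, with a median of 66.3% of WT-0 in skip-S. Like the other groups of members, this one was drawn from the members alone and has no share over all genes. Of 620 genes annotated as disease resistance and defence proteins, 48 were salt-lowered with 5 FPKM or more and 1 was a member. Of all 967 salt-lowered genes 5.58% were members. ECS1, a cell wall protein linked to a bacterial disease, had 168 FPKM in skip-S against 73.4 in WT-S, and 81.1 in WT-S against 354 in WT-0. A defensin-like gene, AT1G13609, had 19.5 FPKM in skip-S against 4.55 in WT-S, and 5.03 in WT-S against 20.2 in WT-0. For ECS1 the mutant stood between both wild types, at 52.4% of WT-0, and for AT1G13609 it stood at the untreated level, at 106.2%.

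Within 1 stretch of chromosome 4, AT4G22490, AT4G22513, AT4G22517 and AT4G22520 are lipid-transfer-type genes, each within 5 loci of another. AT4G22513 had 147 FPKM in skip-S against 40.1 in WT-S, and 44.3 in WT-S against 110.4 in WT-0. AT4G22517 had 105.7 FPKM in skip-S against 48.7 in WT-S, and 53.8 in WT-S against 123 in WT-0. These neighbours differ in where skip-S stood, at 146.5% of WT-0 for AT4G22513 and 94.7% for AT4G22517.

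AT4G22490 had 37.9 FPKM in skip-S against 17.8 in WT-S, and 19.6 in WT-S against 78.9 in WT-0. AT4G22520 had 33.7 FPKM in skip-S against 12.4 in WT-S, and 13.7 in WT-S against 38.9 in WT-0. The stretch did not move as a block: AT4G22485 and AT4G22505, of the same family and next to or among them, had skip log2 ratios of 0.03 and 0.04, with salt ratios of -1.25 and -0.95. Overlapping annotation touches 3 of these 4 members. AT4G22510, which shares 58.2% of AT4G22513 and 42.7% of AT4G22517 on the opposite strand, was listed at 0 in all 4 columns. All of AT4G22520 (100%) overlaps AT4G22530 on the opposite strand, which had 22.6 FPKM in skip-S against 23.7 in WT-S, and 26.2 in WT-S against 12.6 in WT-0. Without a stated strand setting, reads of such a pair cannot be told apart. In the family as a whole, 27 of 106 genes were at least 2-fold lower with salt, and in skip 4 were higher, the members, and 6 lower. Over all nuclear identifiers the shares were 3.70% lower with salt, and 1.3% higher and 2.62% lower in skip.

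PCC1, named for its control by pathogens and the clock, and its neighbour AT3G22235 are small cysteine-rich membrane proteins that share sequence, 30.8% of PCC1 and 65.9% of AT3G22235. PCC1 had 1.90 FPKM in skip-S against 0.43 in WT-S, and 0.47 in WT-S against 9.34 in WT-0. AT3G22235 had 10.2 FPKM in skip-S against 4.25 in WT-S, and 4.70 in WT-S against 36.8 in WT-0. Reads may have been split between them, so their values are uncertain. In skip-S, PCC1 was at 30.004% of WT-0 and AT3G22235 at 32.4%. The next gene of this kind, AT3G22240, fell with salt by a log2 ratio of -2.71 and had 0.13 in skip.

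The remaining genes of this group encode receptor-like and membrane proteins with low levels. AT1G35710, a receptor-like kinase with leucine-rich repeats, had 8.07 FPKM in skip-S against 1.64 in WT-S, and 1.81 in WT-S against 6.83 in WT-0. RLP19 had 3.60 FPKM in skip-S against 1.07 in WT-S, and MLO10 had 2.61 FPKM in skip-S against 0.69 in WT-S. RLP19 and MLO10 passed the minimum of 5 FPKM through WT-0 alone, as did PCC1 and the glucosinolate gene CYP79F2.

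Other enzymes and metabolic proteins gave 9 members, and 8 of them were within 2-fold of WT-0 in skip-S. ATSPS4F, a sucrose-phosphate synthase, had 25.2 FPKM in skip-S against 5.16 in WT-S, and 5.70 in WT-S against 18.7 in WT-0. At 146.4% of WT-0 it was the highest of this group, and its relative SPS1F (AT5G20280) went the other way with salt, with a log2 ratio of 1.202 and of -0.07 in skip. SDR4, a short-chain dehydrogenase, had 32.4 FPKM in skip-S against 8.35 in WT-S, and 9.23 in WT-S against 75.3 in WT-0, and skip-S stood at 48.2% of WT-0. HMT3, which makes methionine from homocysteine, had 9.59 FPKM in skip-S against 3.85 in WT-S, and 4.25 in WT-S against 13.2 in WT-0. DFD, an enzyme of folate polyglutamylation, SVL2, a membrane-anchored protein, CSLB04, a cellulose synthase-like protein, and AT1G27480, AT2G29340 and AT3G19508 were between 85.7% and 104.4% of WT-0.

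No function is stated for 8 members. AT5G42530 and AT2G25510 were abundant. AT5G42530 had 159 FPKM in skip-S against 51.9 in WT-S, and 57.4 in WT-S against 342 in WT-0. AT2G25510 had 183 FPKM in skip-S against 73.3 in WT-S, and 81.0 in WT-S against 216 in WT-0. The first stood at 51.7% and the other at 93.5% of WT-0 in skip-S.

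The members with the highest 2 ratios in skip, AT2G28426 and AT1G03660, had very low values in WT-S. AT1G03660, with an ankyrin-repeat product, had 5.21 FPKM in skip-S against 0.13 in WT-S, and 0.14 in WT-S against 1.29 in WT-0. Its WT-S value rests on about 5 fragments. AT2G28426 had 7.74 FPKM in skip-S and 5.90 FPKM in WT-0 and was listed at 0 in WT-S. Its annotated transcript is 132 nt long and a 0 can be a failed estimate, so no fold is given. AT2G07726, annotated as a pseudogene, had 5.57 FPKM in skip-S against 1.08 in WT-S, and 1.197 in WT-S against 4.10 in WT-0. AT1G03660 and AT2G07726 are the 2 members that passed the minimum of 5 FPKM through skip-S only. AT2G28426 had 5 FPKM or more in both skip-S and WT-0. All of the 50-base stretches of AT2G07726 (100%) occur at other loci, in the mitochondrial genome, so its reads cannot be assigned to the nucleus. AT2G30766, AT3G26510 and AT4G26055 were between 71.0% and 113.9% of WT-0.

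The annotation gives locations that the rule did not use. Among protein-coding genes with a stated location, 12 of 32 members (37.5%) were placed in the plastid, against 65 of 461 (14.1%) of the salt-lowered genes within 2-fold in skip, 5 of 42 (11.9%) of those lower in skip and 26.8% of all genes with 5 FPKM or more. The endomembrane system was stated for 11 of the 32 members (34.4%), against 45.8% of those within 2-fold in skip, 61.9% of those lower in skip and 17.4% of all. This is a description of counts, without a test. Members without introns were 8 of the 53 protein-coding ones (15.1%), against 27.9% of the salt-lowered genes within 2-fold in skip, 20.7% of those lower in skip and 13.4% of all. The median transcript was 1492 nt for members, against 1386 nt for the salt-lowered genes within 2-fold in skip, 1222 nt for those lower in skip and 1716 nt for all. The members lay on all 5 chromosomes, 12, 10, 14, 10 and 8 from chromosome 1 to 5.

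Promoters were searched for 16 short motifs on both strands, from 250 bases before to 50 after the annotated start. GTAC, the core of a site bound by SPL factors, was in 31 of 53 member promoters (58.5%), against 42.0% of those of salt-lowered genes within 2-fold in skip, 54.9% of those lower in skip and 39.0% of all 26686 nuclear promoters of this length. It was found in 5 of 7 glucosinolate and 7 of 14 chloroplast and photosynthesis-linked members. The share in members was thus close to that of the salt-lowered genes with the opposite sign in skip. The G-box CACGTG was in 3.8% of member promoters and 7.8% of all. The evening element AAATATCT was in 3.8% and 5.7%. The phosphate-response site GNATATNC was in 11.3% and 6.2%, the TATA box TATAAA in 56.6% and 52.6%, and the ABRE core ACGTGT, linked to abscisic acid, in 13.2% and 12.5%. The as-1 core TGACGT was in 9.4% and 9.2%. A match is a description and not a site.

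The 250 bases before the start are shown for 3 glucosinolate members and 2 chloroplast members that hold GTAC, so that its place can be compared between genes that all fell with salt and differ in where skip-S stood. CP12-2 was at 84.5% of WT-0 in skip-S, and the other 4 were between 25.2% and 40.9%. They were read 5′ to 3′ from RefSeq assembly TAIR10.1, with GTAC in capitals. BCAT4 is at chr3:6849583-6849832 on the minus strand, IPMI1 at chr3:21798304-21798553 on the minus strand, IPMI2 at chr2:17920397-17920646 on the plus strand, CP12-2 at chr3:23090694-23090943 on the plus strand and CRR7 at chr5:15702828-15703077 on the plus strand.
BCAT4: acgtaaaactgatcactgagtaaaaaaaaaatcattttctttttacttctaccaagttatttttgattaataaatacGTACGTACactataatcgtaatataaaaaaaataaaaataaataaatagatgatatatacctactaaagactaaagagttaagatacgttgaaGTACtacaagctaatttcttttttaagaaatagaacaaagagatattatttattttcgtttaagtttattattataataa
IPMI1: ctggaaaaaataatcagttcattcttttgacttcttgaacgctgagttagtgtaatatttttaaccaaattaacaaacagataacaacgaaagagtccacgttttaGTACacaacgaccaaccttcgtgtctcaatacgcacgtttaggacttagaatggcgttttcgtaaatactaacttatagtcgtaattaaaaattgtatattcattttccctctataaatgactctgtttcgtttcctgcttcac
IPMI2: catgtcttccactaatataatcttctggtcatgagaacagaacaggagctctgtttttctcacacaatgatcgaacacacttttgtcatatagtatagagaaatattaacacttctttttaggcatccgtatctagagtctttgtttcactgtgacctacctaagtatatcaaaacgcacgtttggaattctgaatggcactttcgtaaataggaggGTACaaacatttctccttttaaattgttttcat
CP12-2: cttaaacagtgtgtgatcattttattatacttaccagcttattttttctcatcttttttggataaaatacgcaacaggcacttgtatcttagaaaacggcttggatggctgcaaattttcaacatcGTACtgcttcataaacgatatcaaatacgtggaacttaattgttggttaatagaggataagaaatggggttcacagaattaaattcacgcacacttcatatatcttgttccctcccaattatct
CRR7: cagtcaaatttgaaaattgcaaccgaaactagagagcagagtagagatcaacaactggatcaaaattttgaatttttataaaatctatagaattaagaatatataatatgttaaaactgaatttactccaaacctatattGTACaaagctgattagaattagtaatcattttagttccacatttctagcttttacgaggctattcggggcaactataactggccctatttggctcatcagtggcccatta
BCAT4 holds 3 matches in this window and each of the others 1. The matches do not fall at a common distance: counted back from the start, the first base is at -173, -169 and -80 in BCAT4, -144 in IPMI1, -33 in IPMI2, -124 in CP12-2 and -110 in CRR7.

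SKIP itself (AT1G77180) had 41.6 FPKM in skip-S against 49.04 in WT-S, and 54.2 in WT-S against 39.2 in WT-0. Its level was not 2-fold lower in the library labelled skip-S, and a total per gene cannot show a transcript that is changed but still made. Root marker genes fell with salt in 8 of 13 cases, with a summed level of 61.1 FPKM in WT-S against 232 in WT-0, and none passed 2-fold in skip, with 53.3 FPKM in skip-S against 55.3 in WT-S. Over nuclear genes with 5 FPKM or more, 6.05% were lower with salt, and 2.03% higher and 4.76% lower in skip. In marker lists this short, none past 2-fold in skip is near those shares. The 4 mesophyll markers passed 2-fold in neither comparison, with sums of 20902 FPKM in skip-S against 22779 in WT-S, and 25176 in WT-S against 32210 in WT-0. Those of guard cell, phloem and xylem passed 2-fold in neither comparison, and 1 epidermis marker rose with salt. Of the 4 seed markers, none of which had 5 FPKM in any column, 2 fell with salt and none passed 2-fold in skip. They summed to 0.70 FPKM in skip-S against 1.204 in WT-S, and 1.33 in WT-S against 5.92 in WT-0. No member is in a marker list, and the part of cell makeup in the members' values was not tested.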

How the data were processed

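Whole-seedling RNA of skip-S, WT-S and WT-0 was measured. Per the submitters' processing notes, the tools were TopHat and Cufflinks and the build TAIR10; library strand and read length were not stated. The deposited values were read as FPKM, inferred from the values and those tools, in 2 tables that the authors scaled separately (skip-S with WT-S, and WT-S with WT-0), with 2 replicates merged into 1 value per group. WT-S differed between them by a factor of 1.1049 over 24882 genes, 24822 of them within 0.1%. Ratios were formed within a table as log2 of FPKM + 1, which understates changes of low genes. A gene was called at 2-fold, a rule of size and not a test.

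Taking the steps of low values as fragments, a gene of 1 kb at 5 FPKM rests on about 187 fragments in skip-S, 246 and 223 in WT-S (second and first table) and 200 in WT-0. Only 55.0 to 71.3% of low values were near a whole step (within 0.15; 30% by chance), so no count test was run. These depths cover counting error only.

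Names, product words, locations and promoters came from RefSeq TAIR10.1, which matched 32810 identifiers and all 54 members. The share of 50-mers in other loci marks uncertain genes. Members, lists and motifs were chosen with earlier results of these data known. A rule on level, size and place named 30 members; other members and all relatives were named after their values were seen. The scripts were tested on simulated data. Python 3.11.15 with pandas 2.3.3, numpy 2.4.6 and scipy 1.17.1 was used. Alternatives were another pseudocount, FPKM minimum, centring and fold limit, and leaving out rRNA and short transcripts.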

Additional observations from a re-analysis of the deposited data

How the results depend on the processing

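The number of members and its dependents followed the pseudocount and the fold limit. With a pseudocount of 0.1 there were 89 members, 7.87% of the salt-lowered genes, of which 33 were at least 2-fold below WT-0 in skip-S. With a pseudocount of 5 there were 24, 4.203% and 4. A limit of 3-fold gave 7 members, 1.69% and 0 below WT-0, and a limit of 1.5-fold gave 251, 11.0% and 54. Without the FPKM minimum, with a minimum of 10, with ratios centred on the median gene, and without rRNA and short transcripts, the number was 65, 45, 61 and 53. The members' median skip-S over WT-0 log2 ratio lay between -0.34 and -0.11 under these 8 alternatives, against -0.22. Of the 108 single-gene ratios, 46 were no longer past 2-fold with a pseudocount of 5. A smaller pseudocount and the centring move the members' ratios away from 0, so they could not lose a member.

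Replicates were merged before deposit, so no replicate could be left out and no error between plants is known. No paired analysis was possible because each group has 1 value per gene and no result comes from a test. In WT-S, AT1G03660 and PCC1 rest on few fragments (about 5 and 13).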

Other observations

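Other gene groups with salt-lowered genes are given beside the share of members among all 967 salt-lowered genes, 5.58%. In the list of root hair cell wall genes and factors, 6 of 10 were at least 2-fold lower with salt, none was higher in skip and 1 was lower, and 8 of 10 were at least 2-fold below WT-0 in skip-S. Of 100 genes annotated as peroxidases, which act on the cell wall and on reactive oxygen, 28 were lower with salt, and in skip 1 was higher and 8 lower. Of 550 genes annotated as cell wall proteins and enzymes, 79 were lower with salt, 4 higher in skip and 19 lower, and only CSLB04 was among the 54. Over all nuclear identifiers the shares were 3.70% lower with salt, 1.3% higher in skip and 2.62% lower in skip. Over nuclear genes with 5 FPKM or more, 10.4% were at least 2-fold below WT-0 in skip-S. At that level 6 root hair, 23 peroxidase and 73 cell wall genes were salt-lowered, and 0, 0 and 1 of them were members. A difference from 5.58% was not tested.

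In the mitochondrial stress list, 9 of 10 genes were at least 2-fold higher in skip, 5 were higher with salt and none was lower with salt. Over nuclear genes with 5 FPKM or more the shares were 2.03%, 11.0% and 6.05%. In a list this short, none lower with salt is near its share.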
